A study of Mus musculus with 2 samples.

Results

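The genes described here are the secreted Wnt ligands of the mouse, their Frizzled and Lrp receptors, the secreted Wnt antagonists, and the Dapper, Axin and TCF/LEF proteins that act inside the cell. The choice was made with earlier results of these data known. The rule used the symbol: the *Wnt*, *Fzd*, *Sfrp*, *Dkk* and *Dact* families together with *Frzb*, *Wif1*, *Lrp5*, *Lrp6*, *Axin1*, *Axin2*, *Lef1*, *Tcf7*, *Tcf7l1* and *Tcf7l2*. This gave 50 genes of the 20282 genes on the array that have a symbol and a probe, and 29 of the 50 were measured, meaning that at least 1 probe was well above background on at least 1 array. The arrays carried left ventricular RNA of male mice aged 12 weeks, collected at ZT 2 (ZT 0 being lights on). *H-Bmal1*-/- mice carry a floxed *Bmal1* gene and a Cre transgene under the αMHC promoter, which is active in cardiomyocytes, so the other cells of the ventricle keep the gene. Controls were littermates with the floxed gene and without Cre, although they are labelled as wild type, and no array of mice with Cre alone is part of the comparison. RNA of 6 animals per genotype was pooled and put on 1 array, so the differences below have no replicate check, and whether they exceed the spread between animals cannot be tested.

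Wnt proteins are lipid-modified, secreted signals that bind a Frizzled receptor at the cell surface. With an Lrp co-receptor, binding stops the Axin complex from destroying beta-catenin, which then acts with TCF/LEF factors on target genes. Without it, Wnts act on cell shape, polarity and calcium. In the heart, Wnt signals pattern the embryonic organ, and the pathway is known for its activity in the adult heart after injury.

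Levels are given as relative signal, the processed signal of a probe divided by the 75th percentile of its array, which was 190 in the knockout pool and 171 in the control pool. The error beside each level is the scanner software's own estimate for a spot and does not cover animals or labeling. The log2 ratio is knockout minus control, and its error combines both spot errors. Levels of different probes are not compared with each other. For a gene that passed background on just 1 array, the fold is a nominal lower bound. It is computed against the dimmest signal that was well above background on the other array, or the probe's own signal there, whichever is higher. That dimmest relative signal was 0.0582 in the knockout pool and 0.0646 in the control pool. It is not a strict limit of detection, since *Wnt2b*, at 0.0711 in the knockout pool, was not well above background there.

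The arrays were alike in depth, with 29672 of 59305 spots well above background for the knockout pool, 29288 for the control pool and 0 saturated. Of the genes that check the genotype, *Arntl*, which encodes BMAL1, had a relative signal of 1.73 in the knockout pool and 3.0 in the control pool, a ratio of -0.80 ± 0.20. The place of its probe relative to the deleted part is not known here, and RNA of cells other than cardiomyocytes is also in the pool. The clock gene *Nr1d1* and the clock output gene *Dbp* had ratios of -2.09 ± 0.21 and -0.36 ± 0.14. In the ventricle as a whole, fewer cells of a type and less RNA per cell cannot be told apart.

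A difference of 1.5-fold or more was seen for 10 of the 29 measured genes, 5 of them higher in the knockout pool and 5 lower, or 17.2% each, beside 6.15% higher and 5.85% lower of the 13846 genes measured on the arrays. *Dkk3*, *Frzb*, *Sfrp2*, *Fzd2* and *Fzd3* were higher, and *Wnt7a*, *Wif1*, *Sfrp5*, *Wnt5a* and *Wnt11* were lower. Most of the differences lay among the secreted proteins: each gene that passed background on both arrays and differed by 2-fold or more as a gene encodes a secreted antagonist or a Dickkopf protein, and the 3 ligands past 1.5-fold were all lower. In all, 10 genes were above 0 and 19 below, with a median log2 ratio of -0.15, against -0.01 over all genes. The size of the ratio, regardless of sign, had a median of 0.34, against 0.19 over all genes, and it was more than 2 times the spot error for 12 genes (41.4%), against 20.0% of all genes.

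**Figure D1:**
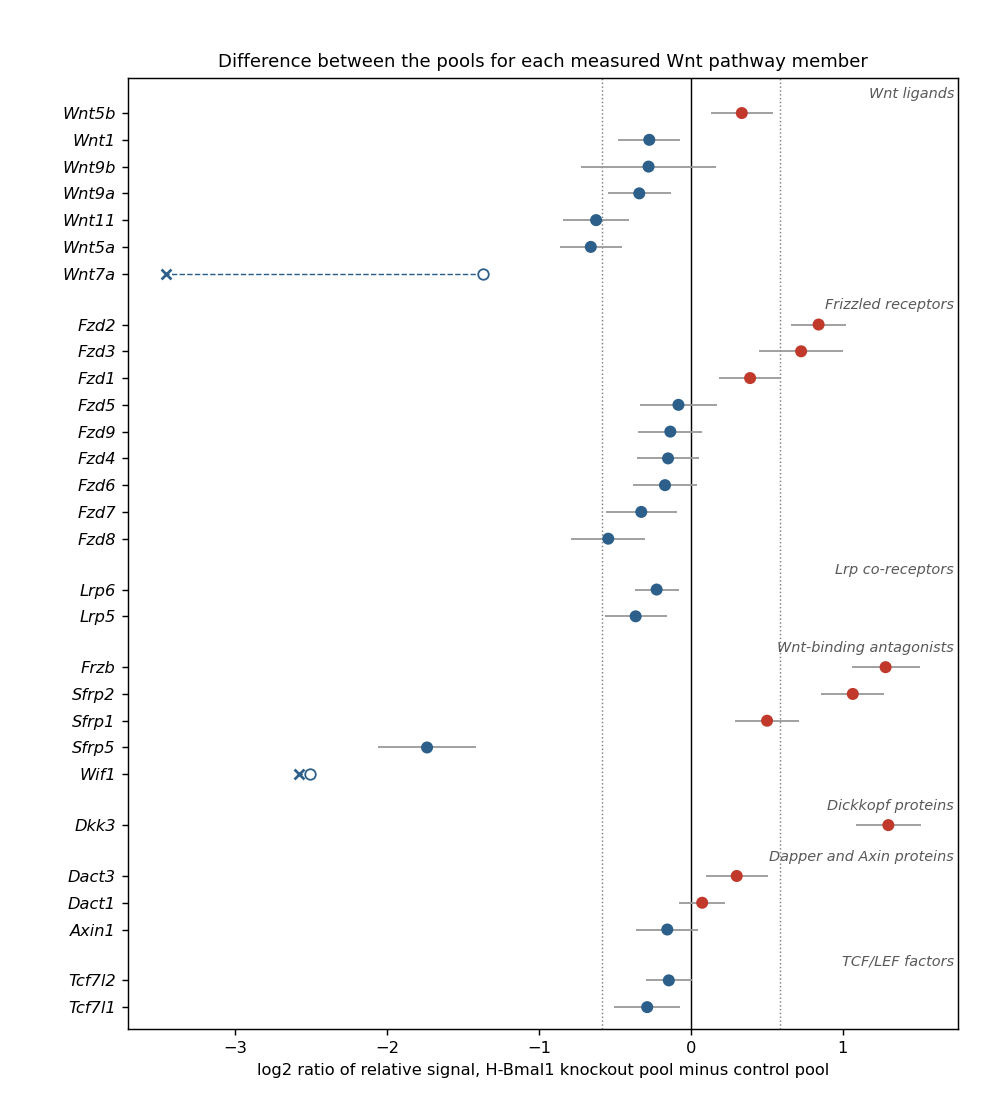
Log2 ratio (knockout pool minus control pool, horizontal axis) of the 29 measured genes, grouped by role, with bars for the spot error and dotted lines at 1.5-fold in either direction. Open circles mark the bound and crosses the measured ratio of *Wnt7a* and *Wif1*, which were well above background in the control pool only, and the antagonists spread from -2.58 for *Wif1* to 1.28 for *Frzb*.

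Among the ligands, 7 of 19 were measured. Their median was -0.34, and 6 of the 7 had less signal in the knockout pool. *Wnt5a*, a ligand that acts mainly without beta-catenin, had a relative signal of 0.946 ± 0.0954 in the knockout pool and 1.49 ± 0.15 in the control pool. Its ratio was -0.66 ± 0.21, or 1.58-fold lower, the 461st lowest of the 13050 genes well above background on both arrays. *Wnt11*, a ligand of the same kind that takes part in heart formation, had 0.295 ± 0.0322 in the knockout pool and 0.454 ± 0.0477 in the control pool. Its ratio of -0.62 ± 0.22, or 1.54-fold lower, was just past the 1.5-fold limit. Both differences were about 3 spot errors in size, but both genes were less than 1.5-fold lower without scaling between the arrays (-0.51 for *Wnt5a* and -0.47 for *Wnt11*) and with another background correction, normexp with an offset of 50 (-0.53 and -0.31).

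*Wnt7a*, a ligand best known from limb and nervous system, was well above background in the control pool only. Its relative signal was 0.0137 ± 0.0138 in the knockout pool, where the error is as large as the signal, and 0.151 ± 0.0332 in the control pool. The nominal bound is 2.59-fold lower, and the measured ratio of -3.46 has an error of 1.48. The large size of that ratio thus rests on a signal that was not told from background, and the other background correction gave -0.30.

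The remaining ligands differed by less. *Wnt5b*, closely related to *Wnt5a*, was the only ligand above 0, with 2.75 ± 0.275 in the knockout pool and 2.18 ± 0.218 in the control pool, a ratio of 0.34 ± 0.20. *Wnt9a* had 1.02 ± 0.103 in the knockout pool and 1.29 ± 0.130 in the control pool, a ratio of -0.34 ± 0.21. *Wnt1*, the founding member and an activator of beta-catenin signaling, had 1.16 ± 0.117 in the knockout pool and 1.40 ± 0.141 in the control pool on 1 of its 2 probes, a ratio of -0.27 ± 0.21. These 3 ratios were below 2 spot errors, as was that of *Wnt9b*, which was dim in both pools (0.0737 ± 0.0165 in the knockout pool and 0.0894 ± 0.0190 in the control pool, -0.28 ± 0.45). The second *Wnt1* probe was not well above background on either array, so the 2 probes of that gene do not give the same picture of its level.

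The other 12 ligands, *Wnt2*, *Wnt2b*, *Wnt3*, *Wnt3a*, *Wnt4*, *Wnt6*, *Wnt7b*, *Wnt8a*, *Wnt8b*, *Wnt10a*, *Wnt10b* and *Wnt16*, were not well above background on either array, and no fold is given for them. *Wnt2b*, for example, had 0.0711 ± 0.0175 in the knockout pool and 0.0535 ± 0.0186 in the control pool.

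**Figure D2:**
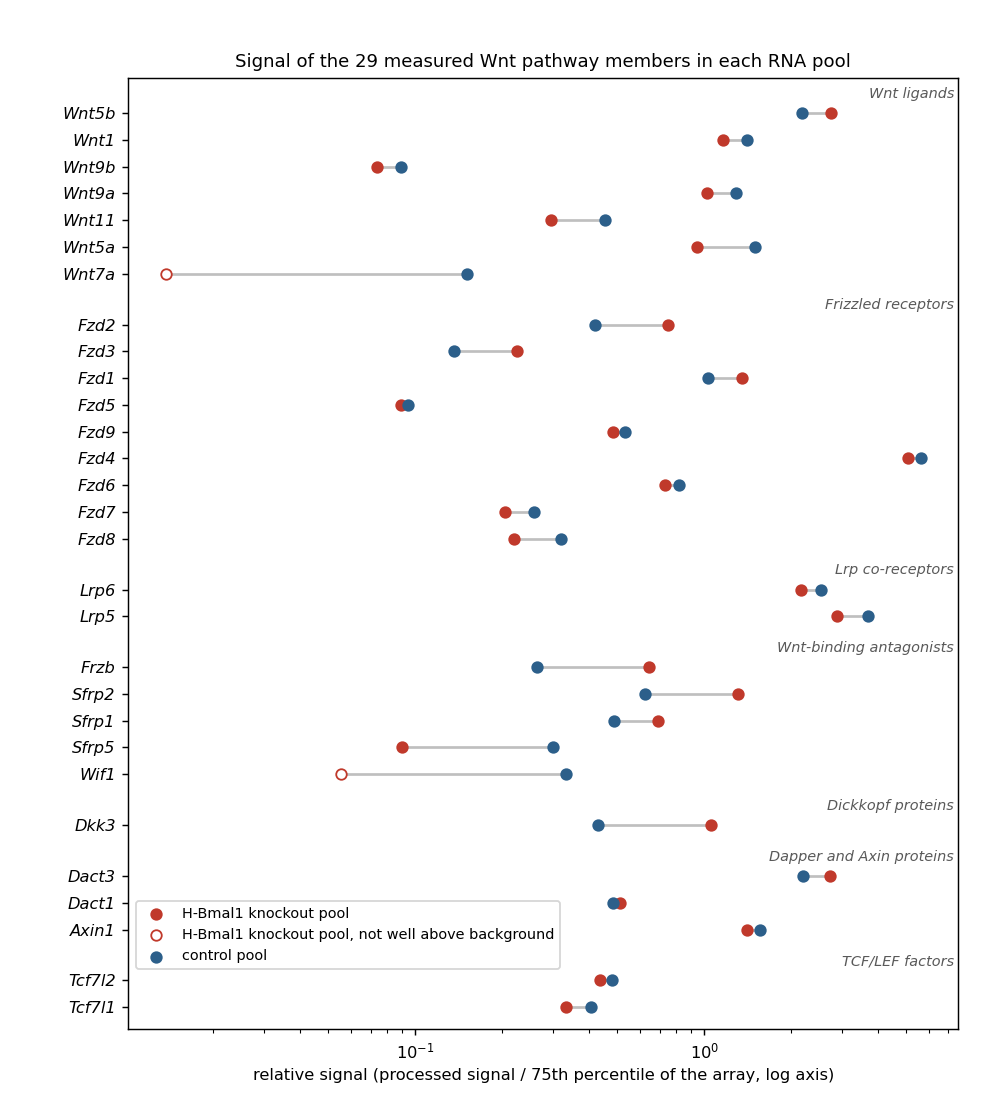
Relative signal (processed signal over the 75th percentile of the array, log axis) of the 29 measured genes in the knockout pool (red) and the control pool (blue), 1 array each, grouped by role and joined by a line per gene. Open circles are not well above background, and the long lines belong to *Wnt7a*, *Wif1* and *Sfrp5*, which were lower in the knockout pool, and to *Frzb*, *Sfrp2*, *Dkk3* and *Fzd2*, which were higher.

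Of the 10 Frizzled genes, which encode the receptors that bind Wnts through a cysteine-rich outer domain, 9 were measured. There were 3 higher and 6 lower, with a median of -0.13, but without scaling between the arrays 6 of the 9 were above 0 with a median of 0.02. *Fzd2* had the highest ratio, 0.84 ± 0.18 or 1.79-fold higher as the mean of 2 probes, and these probes differed. The brighter one had a relative signal of 3.12 ± 0.312 in the knockout pool and 1.22 ± 0.123 in the control pool, a ratio of 1.36 ± 0.20. The dimmer one had 0.179 ± 0.0238 in the knockout pool and 0.143 ± 0.0227 in the control pool, a ratio of 0.33 ± 0.30. Both were thus higher in the knockout pool, the second by about 1 spot error.

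*Fzd3*, a receptor used in planar cell polarity and axon guidance, had 0.225 ± 0.0263 in the knockout pool and 0.136 ± 0.0204 in the control pool, a ratio of 0.73 ± 0.27 or 1.66-fold higher. With the other background correction this ratio was 0.18. *Fzd1* had 1.36 ± 0.136 in the knockout pool and 1.03 ± 0.105 in the control pool, a ratio of 0.39 ± 0.21. *Fzd8* was the lowest, with 0.220 ± 0.0270 in the knockout pool and 0.320 ± 0.0368 in the control pool. At -0.54 ± 0.24, or 1.46-fold lower, it fell just short of the limit. The extremes of the family thus lay on opposite sides of 0, and *Fzd3*, *Fzd2* and *Fzd8* were the Frizzled genes past 2 spot errors.

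*Fzd4*, which also serves as the receptor for norrin in blood vessels, had 5.05 ± 0.506 in the knockout pool and 5.61 ± 0.561 in the control pool, a ratio of -0.15 ± 0.20. *Fzd6* (-0.17 ± 0.21), *Fzd9* (-0.13 ± 0.21), *Fzd7* (-0.33 ± 0.23 on 1 of 2 probes) and *Fzd5* (-0.08 ± 0.26) were also within 2 spot errors of 0. The 2 probes of *Fzd5* were on opposite sides of 0, at -0.27 and 0.11. *Fzd10* was not measured. The co-receptors that pair with Frizzled in beta-catenin signaling were both lower by small amounts: *Lrp5* had 2.87 ± 0.288 in the knockout pool and 3.70 ± 0.370 in the control pool (-0.36 ± 0.20), and *Lrp6* was at -0.22 ± 0.15 over 2 probes with -0.31 and -0.14.

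The antagonists that bind Wnt proteins directly held the widest range of ratios. Secreted frizzled-related proteins (the *Sfrp* genes and *Frzb*) carry the same cysteine-rich domain as the receptors, without a membrane anchor, and *Wif1* encodes an inhibitor with a different Wnt-binding domain. Of these 6 genes, 5 were measured, and all 5 ratios were larger than 2 spot errors: 3 higher and 2 lower.

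*Frzb* had a relative signal of 0.641 ± 0.0657 in the knockout pool and 0.263 ± 0.0307 in the control pool. Its ratio was 1.28 ± 0.22, or 2.43-fold higher, the 135th highest of the 13050 genes. *Sfrp2* had 1.31 ± 0.131 in the knockout pool and 0.623 ± 0.0641 in the control pool, a ratio of 1.07 ± 0.21 or 2.10-fold higher, the 206th highest. *Sfrp1* was higher too, with 0.690 ± 0.0705 in the knockout pool and 0.487 ± 0.0513 in the control pool (0.50 ± 0.21), but by 1.42-fold, just below the limit. These 3 relatives were thus all brighter in the knockout pool, by between 1.42 and 2.43-fold, and stayed above 0 under all 8 other ways of processing the arrays. Each has 1 probe, so the 2 filters and the choice of the brightest probe could not change its ratio. The value table differs by 1 factor per array, which the scaling removes. With the normexp correction the ratios were smaller, at 0.66 for *Frzb*, 0.73 for *Sfrp2* and 0.39 for *Sfrp1*.

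*Sfrp5* and *Wif1* lay on the other side. *Sfrp5* had 0.0898 ± 0.0172 in the knockout pool and 0.299 ± 0.0343 in the control pool, a ratio of -1.74 ± 0.32 or 3.33-fold lower, the 44th lowest of the 13050 genes. *Wif1* had 0.0554 ± 0.0133 in the knockout pool, which was not well above background, and 0.331 ± 0.0358 in the control pool. Its nominal bound was 5.69-fold lower, with a measured ratio of -2.58 ± 0.38. Both were dim in the knockout pool, and the correction that adds an offset of 50 to every signal gave smaller ratios of -0.67 for *Sfrp5* and -0.89 for *Wif1*, still lower. *Sfrp4* was not well above background on either array, with 0.0311 ± 0.0128 in the knockout pool and 0.0264 ± 0.0140 in the control pool.

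The promoters of the 4 antagonists past the 1.5-fold limit are shown because these relatives differed between the pools in opposite directions. Each runs 5′ to 3′ on the strand of the gene, with 250 bases before the start of transcription and 50 from it on, from RefSeq annotation of GRCm38.p6. Capitals mark the E-box CACGTG, the sequence that BMAL1 with its partner CLOCK is known to bind, and the TCF/LEF core CTTTGA, both searched on either strand. The *Frzb* window is chr2:80447347-80447646 on the minus strand, that of *Sfrp2* chr3:83766071-83766370 on the plus strand, that of *Sfrp5* chr19:42202203-42202502 on the minus strand and that of *Wif1* chr10:121033754-121034053 on the plus strand.
Frzb: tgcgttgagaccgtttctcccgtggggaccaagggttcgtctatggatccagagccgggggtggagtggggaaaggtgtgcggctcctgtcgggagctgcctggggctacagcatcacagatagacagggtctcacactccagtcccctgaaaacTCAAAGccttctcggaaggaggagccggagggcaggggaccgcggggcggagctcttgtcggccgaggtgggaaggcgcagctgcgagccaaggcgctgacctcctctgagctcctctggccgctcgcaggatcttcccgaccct
Sfrp2: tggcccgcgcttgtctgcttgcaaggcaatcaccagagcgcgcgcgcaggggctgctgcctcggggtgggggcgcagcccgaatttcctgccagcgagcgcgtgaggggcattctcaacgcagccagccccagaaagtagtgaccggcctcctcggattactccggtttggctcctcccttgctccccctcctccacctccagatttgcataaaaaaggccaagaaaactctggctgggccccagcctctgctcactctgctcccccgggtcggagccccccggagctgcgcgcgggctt
Sfrp5: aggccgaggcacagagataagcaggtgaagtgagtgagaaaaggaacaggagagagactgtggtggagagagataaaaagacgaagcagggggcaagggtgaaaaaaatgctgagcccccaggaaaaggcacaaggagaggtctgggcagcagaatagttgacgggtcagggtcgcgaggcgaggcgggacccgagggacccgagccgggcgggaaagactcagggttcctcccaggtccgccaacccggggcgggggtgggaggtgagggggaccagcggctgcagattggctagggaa
Wif1: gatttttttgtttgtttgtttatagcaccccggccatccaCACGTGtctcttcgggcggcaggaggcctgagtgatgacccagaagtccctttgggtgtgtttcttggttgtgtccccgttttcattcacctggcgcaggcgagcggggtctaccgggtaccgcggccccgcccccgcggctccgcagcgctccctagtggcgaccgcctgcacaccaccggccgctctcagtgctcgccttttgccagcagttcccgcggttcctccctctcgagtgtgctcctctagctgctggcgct
The *Wif1* window held 1 E-box, starting 210 bases before the start site, and the *Frzb* window held 1 TCF/LEF core on the opposite strand, written as TCAAAG and starting 95 bases before the start site. The windows of *Sfrp2* and *Sfrp5* held neither. Over all 32851 promoter windows of that length in the annotation, 7.15% held the E-box and 16% the TCF/LEF core. Of the 29 measured genes, 19 had a promoter there, with 23 windows between them. A gene is counted here if any of its windows held a match, whereas the percentages are per window. An E-box was in the windows of 3 (*Wif1*, *Fzd9* and *Wnt9a*), whose ratios were -2.58, -0.13 and -0.34, and a TCF/LEF core in the windows of 4 (*Frzb*, *Fzd1*, *Wnt5b* and *Wnt11*), whose ratios were 1.28, 0.39, 0.34 and -0.62. A match is a run of letters and not a measured binding site.

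Among the Dickkopf genes, *Dkk3* was the only one of 4 that was measured. Its product is the divergent member of the family and, unlike *Dkk1*, is not known for binding the Lrp co-receptors. Its relative signal was 1.06 ± 0.107 in the knockout pool and 0.430 ± 0.0462 in the control pool. The ratio of 1.30 ± 0.21, or 2.46-fold higher, was the highest among the 29 genes and the 127th highest of the 13050 genes, and it was 0.80 with normexp. *Dkk1*, *Dkk2* and *Dkk4*, which encode Lrp-binding proteins, were not well above background in either pool.

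The genes that act inside the cell differed little, and none of the 5 measured passed 1.5-fold or 2 spot errors. *Dact3* and *Dact1* encode Dapper proteins, which bind Dishevelled. *Dact3* had 2.72 ± 0.272 in the knockout pool and 2.20 ± 0.221 in the control pool (0.30 ± 0.20), and *Dact1* was at 0.08 ± 0.15 over 2 probes. *Axin1*, the scaffold of the complex that degrades beta-catenin, had 1.41 ± 0.141 in the knockout pool and 1.56 ± 0.157 in the control pool (-0.15 ± 0.21). *Tcf7l1* (-0.29 ± 0.22) and *Tcf7l2* (-0.14 ± 0.15 over 2 of 3 probes) encode the TCF factors that were measured. *Axin2* is both a scaffold and a widely used target gene of beta-catenin. Neither of its probes was well above background on either array, and the same held for the probes of *Dact2*, *Lef1* and *Tcf7*. For *Axin2* and *Lef1*, a difference between the pools was not detectable at this signal.

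**Figure D3:**
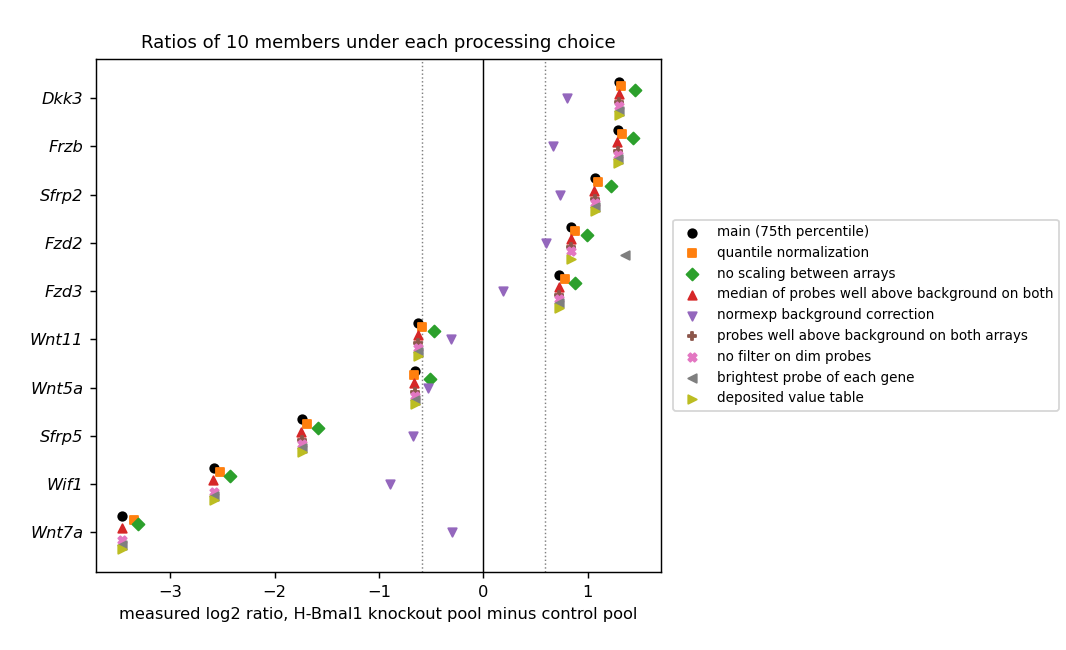
Measured log2 ratio (knockout pool minus control pool, horizontal axis) of the 10 genes past 1.5-fold under the main processing (black) and 8 alternatives (colors), with dotted lines at 1.5-fold. Each kept its side of 0 under every alternative that gave it a value (7 for *Wif1* and *Wnt7a*, 8 for the others), the purple triangles of the offset correction lie nearest to 0 for 9 of the 10, and *Fzd3*, *Wnt11*, *Wnt5a* and *Wnt7a* fall inside the dotted lines with it. For a gene with 1 probe, the brightest probe and any filter that keeps it give back the main ratio.

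The rest of the pathway was described with 7 lists of 62 genes, of which 50 were measured. Past 1.5-fold were 2 higher genes (4%) and 5 lower ones (10%), beside 6.15% higher and 5.85% lower of all genes, and the median was -0.07. With the normexp correction 1 of these 7, *Tnfrsf19*, remained past 1.5-fold. The 3 genes of Wnt processing and release had ratios of 0.40 for *Porcn*, which attaches the lipid to Wnts, 0.12 for *Wls*, which carries Wnts to the surface, and -0.14 for *Notum*, an enzyme that removes the lipid. Without scaling, *Notum* was at 0.02.

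R-spondins strengthen Wnt signals by removing the receptor-degrading ligases Znrf3 and Rnf43 through Lgr receptors. Of these 9 genes, 4 were measured and all 4 were lower. *Znrf3* had 0.0818 in the knockout pool and 0.160 in the control pool (-0.97 ± 0.33, 1.96-fold lower, but -0.31 with normexp), and *Lgr6*, *Lgr4* and *Rspo1* were at -0.40, -0.33 and -0.26. Among the other receptors and antagonists, 5 of 7 measured genes were higher: *Apcdd1*, a membrane inhibitor, was at 0.59 ± 0.30 (1.51-fold higher, but 0.21 with normexp) and *Kremen1*, a receptor for Dickkopf proteins, at 0.49 ± 0.15, whereas *Ptk7* and *Ryk* were at -0.27 and -0.16. *Ror1* passed background only in the knockout pool, with a bound of 1.20-fold higher. Its measured ratio was 0.41 ± 0.54, smaller than its spot error, and 0.01 with normexp. That correction left 4 of these 7 genes above 0, with a median of 0.01.

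All 15 genes of the cytoplasmic beta-catenin pathway were measured, and none reached 1.5-fold. They ranged between -0.25 for *Btrc*, part of the ligase that marks beta-catenin for destruction, and 0.44 for *Apc2*. *Ctnnb1*, the gene of beta-catenin itself, had 12.2 in the knockout pool and 12.7 in the control pool, a ratio of -0.06 ± 0.14. The list's median was -0.06 and turned to 0.09 without scaling, as the planar cell polarity list's turned to 0.06, so neither has a settled direction.

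Among 9 nuclear partners of beta-catenin, all measured, *Bcl9* and *Bcl9l*, which link it to the Pygo proteins, were lower, at -0.70 ± 0.32 and -0.59 ± 0.22, or 1.62-fold and 1.51-fold lower. *Pygo1* was well above background in the control pool only. Of 7 measured planar cell polarity genes, *Prickle1* was lowest, with 5.93 in the knockout pool and 9.11 in the control pool (-0.62 ± 0.20, 1.54-fold lower), and *Daam2* highest at 0.23. The ratios of *Bcl9*, *Bcl9l* and *Prickle1* were smaller than 1.5-fold without scaling, and with normexp at -0.23, -0.31 and -0.45.

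Genes that beta-catenin is known to activate did not differ in 1 direction. Of 8 listed besides *Axin2*, 5 were measured. *Tnfrsf19* had 0.164 in the knockout pool and 0.507 in the control pool, 3.09-fold lower (-1.63 ± 0.24). *Ccn4*, a matricellular protein, had 0.172 in the knockout pool and 0.0976 in the control pool, 1.76-fold higher (0.82 ± 0.28), but 0.16 with normexp and 0.59 on its brightest probe. *Myc*, *Ccnd1* and *Cd44* were at 0.49, 0.29 and 0.15. The list thus held 4 genes above 0 and the lowest ratio of the 50 other pathway genes, that of *Tnfrsf19*.

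**Figure D4:**
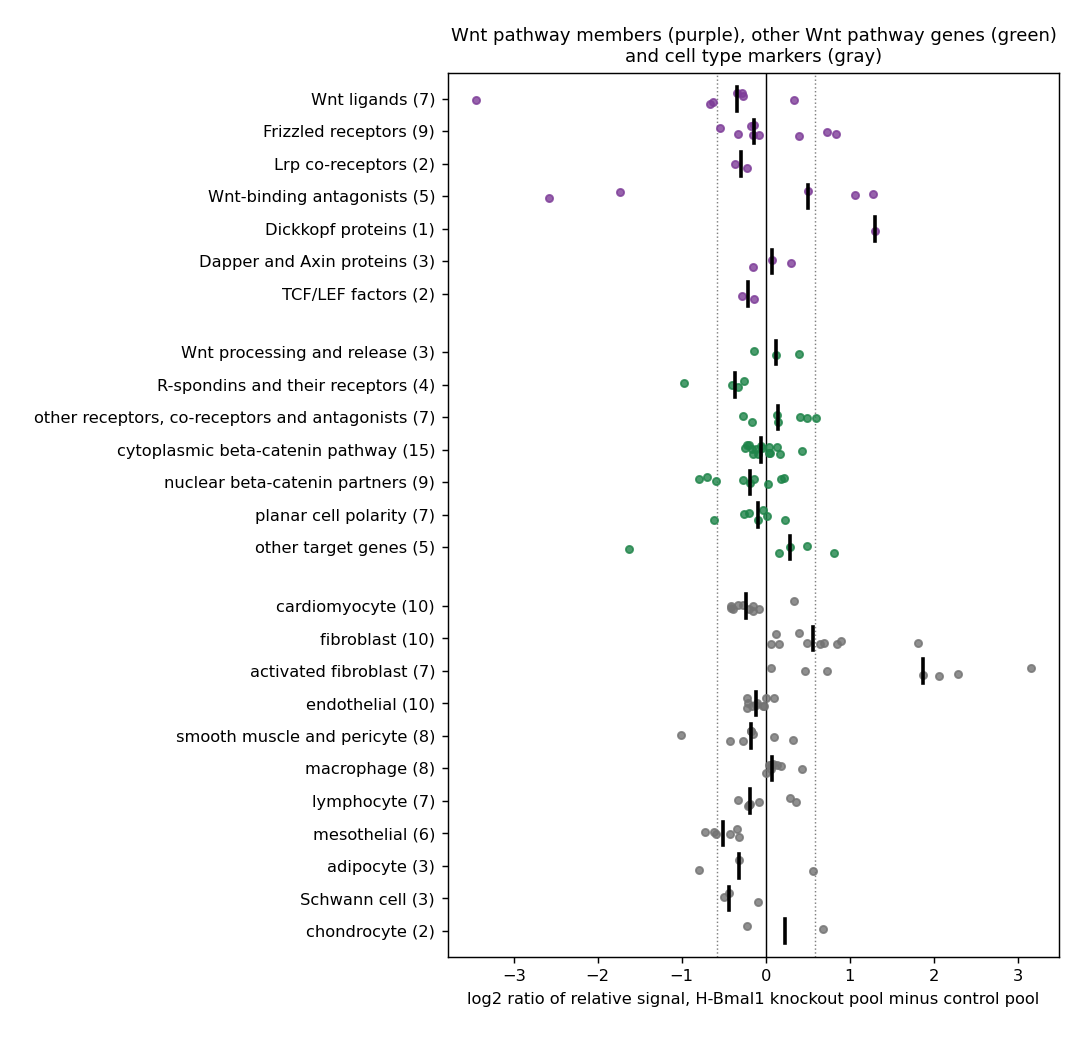
Log2 ratio (knockout pool minus control pool, horizontal axis) of each measured gene, 1 point per gene with random vertical scatter, for the Wnt pathway groups described above (purple), the other pathway lists (green) and the cell type marker lists (gray), with the number measured in brackets. Black ticks are medians and dotted lines mark 1.5-fold, and the fibroblast lists stand to the right with medians of 0.57 and 1.87.

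Cell type markers were set beside these values. All 10 fibroblast markers were higher in the knockout pool (median 0.57, summed relative signal 656 in the knockout pool and 488 in the control pool), led by *Mfap4* (1.82), *Col1a1* (0.90) and *Lum* (0.84). All 7 measured of 8 activated fibroblast markers were higher as well (median 1.87, summed 74.2 in the knockout pool and 50.3 in the control pool), led by *Cilp* (3.17), *Ltbp2* (2.29) and *Thbs4* (2.07), while *Cthrc1* was not measured. On the activated list, *Fn1* (0.46) and *Acta2* (0.06 ± 0.06) were lowest. *Acta2* had 37.0 in the knockout pool and 35.5 in the control pool, the largest single part of both sums. The fibroblast markers *Tcf21*, *Dpt* and *Gsn* were nearest to 0, at 0.16, 0.13 and 0.07. *Gsn* had 186 in the knockout pool and 178 in the control pool, a large part of both sums of the fibroblast list. The higher signals of *Dkk3*, *Frzb*, *Sfrp2*, *Fzd2* and *Fzd3*, the genes past 1.5-fold, thus stood beside higher fibroblast markers in the same pool. The part of these markers in the result was not tested.

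All 6 mesothelial markers, which mark the epicardial surface, were lower (median -0.51, summed 6.23 in the knockout pool and 9.04 in the control pool), with *Upk3b* at -0.72, *Krt19* at -0.62 and *Msln* at -0.60. They were thus lower in the same pool as *Wnt7a*, *Wif1*, *Sfrp5*, *Wnt5a* and *Wnt11*. Several other lists below also had medians under 0. The part of any of these lists in those results was not tested. Of 10 cardiomyocyte markers, 1 was higher and the median was -0.23 (summed 8132 in the knockout pool and 9047 in the control pool). Without scaling, 4 of these 10 were higher and their median was -0.08. The medians of the other lists were -0.11 for 10 endothelial markers, -0.18 for 8 smooth muscle and pericyte markers, 0.08 for 8 of 9 macrophage markers, -0.19 for 7 of 9 lymphocyte markers, -0.32 for 3 of 6 adipocyte markers, -0.44 for 3 of 5 Schwann cell markers and 0.23 for 2 of 5 chondrocyte markers. The endothelial median turned to 0.04 without scaling.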

How the data were processed

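The study measured left ventricular RNA of 2 pools on single-color Agilent SurePrint G3 Mouse arrays. The deposited intensities are the linear processed signals that the authors obtained with Agilent Feature Extraction, after background subtraction and without scaling between arrays; the submitters' notes give version 10.5.1.1 and the scanner output 10.10.1.1. The authors' value table held those signals multiplied by 1 factor per array, of unstated origin, and served as an alternative.

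Control spots and 269 outlier spots were left out. Log2 signals were reduced by the 75th percentile of the array and averaged over spots and over the probes of a gene well above background on at least 1 array. Probes were named through accessions in RefSeq tables of GRCm38.p6: 26759 of 55676 probes had a symbol. For the 250 probes printed at least 8 times and well above background on both arrays, the SD of the log2 ratio between spots had a median of 0.07. Its 95th percentile was 0.27, and dimmer probes are not covered. With 1 array per genotype no test was made, and the number of arrays limits the precision.

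The genes, lists and alternatives were chosen with earlier results of these data known. All measured genes of the chosen families could be named, and up to 3 at each end of the other lists. Alternatives were quantile, median and no scaling, normexp correction (limma 3.58.1, R 4.3.3) with an offset of 50, 2 filters, the brightest probe, the value table and other fold limits. The scripts (Python 3.11.15) were tested on simulated data.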

Additional observations from a re-analysis of the deposited data

How the results depend on the processing

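Of the 29 measured genes, 23 kept their sign under all 8 alternatives, and *Wif1* and *Wnt7a* under the 7 that gave them a value, the filter on both arrays leaving them out. The 8 alternatives are not separate checks. For a gene with 1 probe, the brightest probe and any filter that keeps it return the main ratio. The value table differs by 1 factor per array, which the scaling removes. Median scaling, like no scaling, shifts every ratio by the same amount. *Fzd4*, *Fzd5*, *Fzd9* and *Tcf7l2* turned above 0 without scaling (0.00, 0.07, 0.02 and 0.01). Omitting the scaling raised every ratio by 0.15: the median of all genes became 0.14, the median of the 29 genes -0.0034, 14 of the 29 were above 0 in place of 10, and 69.8% of all genes in place of 48.4%. Of the 5 genes at least 1.5-fold lower, 3 passed without scaling, 2 with normexp correction and 3 with probes well above background on both arrays, whereas 8 of all 50 genes passed without a filter on dim probes, where all 50 count as measured and 18 were above 0. With the limit lowered to a log2 ratio of 0.32, 8 of the 29 were higher and 9 lower, beside 1965 and 2075 of all 13846 measured genes. At 2-fold 3 of the 29 were higher and 3 lower, beside 334 and 285 of all 13846. Of the 10 genes past 1.5-fold, normexp kept 6 and no scaling kept 8, and all 10 were kept by quantile and median scaling, by the brightest probe, by the value table and without a filter. The measured ratio in place of the bound, an alternative chosen after seeing the data, gave 5 higher and 5 lower. Over all genes, 852 were at least 1.5-fold higher, against 1337 without scaling, 369 with normexp and 1622 without a filter, and 810 were lower, against 529, 248 and 1663. No paired analysis was possible because each genotype has 1 array.

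Each pool was measured once, at 1 time of day, so that differences between animals and shifts in the phase of rhythmic genes cannot be told apart from the genotype. The spot error covers the array only. Signals near background limit *Wnt7a*, *Wif1*, *Sfrp5*, *Wnt9b* and *Fzd5*, and 21 of the 50 genes have no fold at all.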
